A study of Mus musculus with 58 samples.

Results

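The genes described here are 10 genes of immature muscle and of the myogenic programme: Myh3, Myh8, Myl4, Tnnt2, Nes, Myod1, Myog, Myf5, Myf6 and Pax7. They were taken by symbol, and every probe set annotated to one of them was kept, which gave 17 of the 45037 probe sets read in each mouse, for 10 of 18193 annotated genes. Their log2 intensities were described mouse by mouse, and each mutant group was set against the wild type of its own experiment.

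Muscle precursors are committed by Myod1 and Myf5, differentiate with Myog and mature with Myf6. These are the 4 myogenic regulatory factors, proteins that bind the DNA letters CANNTG, called an E-box, together with E proteins. Pax7 marks the satellite cells, the resident stem cells of adult muscle. Fibres that are newly formed, in the embryo or after injury, first use embryonic and neonatal forms of the contractile proteins and later replace them by the adult fast or slow forms.

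The series measured quadriceps mRNA of 34 male mice on 58 expression arrays, in 3 experiments. In experiment 1, at 6 months of age, mice of line 20b (n = 6) and of line 41 (n = 6) were set against FVB wild type (n = 6). Both lines are CUGexp transgenic on the FVB background and carry an RNA with an expanded CUG repeat, a model of myotonic dystrophy. In that disease the repeat RNA binds Mbnl1, a splicing regulator, and mis-splicing of the chloride channel Clcn1 causes myotonia, a delayed relaxation of the muscle. In experiment 2, at 3 months, Clcn1-null mice (n = 3), which are myotonic without any repeat RNA, were set against wild type of their BALB background (n = 3). In experiment 3, also at 3 months, Mbnl1-null mice (n = 5) were set against FVB wild type (n = 5). The mice had constitutive genetic changes and no other treatment, so each null carries its changed gene in every tissue and not in muscle alone. Mice of experiments 1 and 2 were read on the array pair 430A and 430B, and those of experiment 3 on the single array 430 2.0.

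Titles number separate mice within each group, and the spread between them is the error used throughout. Array medians, as intensities, lay between 398.4 and 437.8 (430A) and between 30.2 and 34.4 (430B) for experiment 1, and between 9.56 and 11.6 for experiment 3. The experiments were therefore on different scales, and a level is compared only within an experiment and a probe set. A level under log2 5, an intensity of 32, was taken as too low to test. Clcn1 fell by 1.42 on the log2 scale in Clcn1-null mice (SE 0.27, limma adjusted p = 0.0428) and Mbnl1 fell by 0.73 in Mbnl1-null mice (SE 0.06, adjusted p = 4.83e-05). Where the probes of either gene lie relative to its changed part is not given, so neither value checks a label. Clcn1 also fell in Mbnl1-null mice (-1.11), in line 20b (-0.95) and in line 41 (-0.46). The 12 genes of a skeletal muscle list, such as Ckm and Acta1, passed the filter in each experiment. Read on each gene's brightest probe set, only Myh4 in line 20b was called in any comparison with wild type (-0.17). Over all their probe sets, 2 were called higher and 4 lower of 24 in line 20b, and 2 and 1 in line 41. In Clcn1-null mice it was 0 and 1 of 24, and in Mbnl1-null mice 0 and 1 of 23.

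The stretches of DNA just before the start sites show what the factors could meet at the contractile genes, and at Myog as a factor gene that itself holds E-boxes. RefSeq's promoter table for GRCm38.p6 had an entry for 8 of the 10 genes, and the 250 bases before the first listed start are printed for 6 of them, 5′ to 3′ on the strand of the gene, with E-boxes (CANNTG) and the M-CAT motif (CATTCC, the letters bound by TEAD factors, searched on both strands) in capitals. All 6 lie on the plus strand, at chr11:67078050-67078299 (Myh3), chr11:67276874-67277123 (Myh8), chr11:104550413-104550662 (Myl4), chr1:135836084-135836333 (Tnnt2), chr3:87970843-87971092 (Nes) and chr1:134289754-134290003 (Myog).
Myh3: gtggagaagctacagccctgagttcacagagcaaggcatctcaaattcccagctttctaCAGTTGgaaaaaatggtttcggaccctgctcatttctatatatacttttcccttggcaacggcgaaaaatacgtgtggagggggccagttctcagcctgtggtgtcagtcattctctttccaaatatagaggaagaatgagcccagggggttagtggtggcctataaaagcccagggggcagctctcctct
Myh8: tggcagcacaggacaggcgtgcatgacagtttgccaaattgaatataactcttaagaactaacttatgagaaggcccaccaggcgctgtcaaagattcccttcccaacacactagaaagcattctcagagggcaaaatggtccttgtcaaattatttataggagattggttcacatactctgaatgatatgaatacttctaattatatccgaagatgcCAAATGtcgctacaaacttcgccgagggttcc
Myl4: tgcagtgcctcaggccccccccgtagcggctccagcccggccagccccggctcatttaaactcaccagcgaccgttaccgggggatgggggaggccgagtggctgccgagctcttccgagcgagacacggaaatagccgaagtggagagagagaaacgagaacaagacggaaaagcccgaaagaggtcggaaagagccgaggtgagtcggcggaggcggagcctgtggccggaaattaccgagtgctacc
Tnnt2: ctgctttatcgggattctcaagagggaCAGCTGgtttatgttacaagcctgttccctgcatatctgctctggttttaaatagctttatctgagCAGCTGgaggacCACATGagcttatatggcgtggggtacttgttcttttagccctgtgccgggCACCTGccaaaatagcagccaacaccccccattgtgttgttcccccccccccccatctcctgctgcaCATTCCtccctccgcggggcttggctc
Nes: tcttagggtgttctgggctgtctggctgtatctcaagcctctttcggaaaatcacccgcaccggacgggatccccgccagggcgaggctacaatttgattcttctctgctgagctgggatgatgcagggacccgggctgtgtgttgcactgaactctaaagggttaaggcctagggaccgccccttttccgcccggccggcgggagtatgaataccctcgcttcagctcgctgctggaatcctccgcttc
Myog: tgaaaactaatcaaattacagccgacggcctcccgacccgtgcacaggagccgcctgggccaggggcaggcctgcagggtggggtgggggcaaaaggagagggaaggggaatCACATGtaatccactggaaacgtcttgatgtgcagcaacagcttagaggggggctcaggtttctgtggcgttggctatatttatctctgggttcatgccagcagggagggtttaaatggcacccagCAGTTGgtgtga
Positions are of a motif's first base, counted back from the start at -1. Tnnt2 held 4 E-boxes, at -223, -157, -145 and -94, and 1 M-CAT motif at -27. Myog held 2 E-boxes, at -138 and -12. Myh3 held 1 at -191 and Myh8 held 1 at -32. Myl4 and Nes held neither motif in this window, and neither did Myf5 and Pax7, which were searched but are not printed. Of the 32851 promoters of this length in the table, 66.2% held an E-box and 12.6% an M-CAT motif, so an E-box is the usual case. The letters TATAAA, printed here in lower case and held on either strand by 12.4% of promoters, stood at -29 in Myh3 and, on the minus strand, at -96 in Myh8. A second listed Tnnt2 start had 1 E-box, at -156 (CAGTTG), and no M-CAT motif in the 250 bases before it. The printed starts of Myh3, Myl4 and Tnnt2 lie inside the annotated gene, and starts that the table does not list were not searched.

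Embryonic and neonatal sarcomere genes come first. Their main readings were Myh3, the heavy chain of embryonic myosin, which was higher in all 4 mutant groups than in wild type, and Myl4, the embryonic and atrial light chain, which was higher in 3 of them. Myh8, the neonatal heavy chain, and Tnnt2, the troponin T of heart and embryonic muscle, rose in Mbnl1-null mice. Of the 4 genes, 2 were called in line 20b and 2 in line 41, 1 in Clcn1-null mice and 4 in Mbnl1-null mice, all higher, with Myl4 among the last against wild-type mice of which 3 of 5 were under the filter. A call is a Benjamini-Hochberg adjusted p under 0.05 from limma, over all probe sets tested in the experiment, two-sided.

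Myh3 (probe set 1427115_at) read 13.94, 13.82 and 13.36 in the Clcn1-null mice, against 10.32, 10.93 and 10.49 in BALB wild type. The lowest null mouse stood far above the highest wild type. The difference was 3.13 (95% interval 2.58 to 3.67, SE 0.23), which is 8.73-fold, with an adjusted p of 0.00469. Only 23 of the 25944 probe sets tested had a higher log2 change. An exact permutation test over 3 and 3 mice gave 0.1, the smallest p it allows.

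In Mbnl1-null mice Myh3 read 8.57, 8.33, 8.80, 8.45 and 9.09, against 6.81, 6.40, 7.19, 6.38 and 7.02 in FVB wild type. Here too every null mouse was above every wild type. The difference was 1.89 (SE 0.19, 3.70-fold, adjusted p = 0.000133), and 62 of 16229 probe sets had a higher change.

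In experiment 1 Myh3 had a lowest, median and highest level of 8.17, 8.30 and 8.56 in line 20b, 8.06, 8.46 and 9.50 in line 41, and 6.54, 7.03 and 8.38 in wild type. The wild-type range reached into both lines through its highest mouse, mouse 3. The rise was 1.06 in line 20b (SE 0.29, adjusted p = 0.0165) and 1.29 in line 41 (SE 0.29, adjusted p = 0.00943). These 2 comparisons share their 6 wild-type mice, so they are not independent of each other. Line 20b minus line 41 was -0.24 (95% interval -0.85 to 0.37, adjusted p = 0.748).

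Myl4 (1422580_at) read 9.73, 7.98, 8.47, 8.41 and 8.58 in Mbnl1-null mice, against 6.08, 4.50, 4.50, 5.54 and 4.96 in FVB wild type. No null mouse came near the wild-type range, and only 2 wild-type mice reached the filter, so the probe set was tested because of its level in the null mice. The fitted difference was 3.52 (SE 0.37, adjusted p = 0.000144). With 3 of the 5 wild-type mice under the filter its size is uncertain, and no fold is given.

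In line 20b Myl4 had a lowest, median and highest level of 9.21, 9.67 and 9.78, in line 41 of 9.39, 9.87 and 10.80, and in wild type of 6.39, 8.50 and 9.61. The wild-type mice were the widely spread group, with mouse 2 lowest and mouse 3 highest. Myl4 rose by 1.26 in line 20b (SE 0.37, 2.39-fold, adjusted p = 0.0246) and by 1.59 in line 41 (SE 0.37, 3.01-fold, adjusted p = 0.0117). In Clcn1-null mice it read 9.10, 9.48 and 8.56, against 9.05, 9.50 and 9.12 in BALB wild type. These groups overlapped, with a difference of -0.18 (95% interval -0.82 to 0.46, adjusted p = 0.733). The changes in the Clcn1-null and in the other experiments were not tested against each other, since their scales differ.

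The other Myl4 probe set, 1457126_at, was not called anywhere. Its change was 0.18 in line 20b, 0.15 in line 41 and 0.73 in Clcn1-null mice (adjusted p = 0.374 in the last), and in experiment 3 no mouse reached the filter. In line 41 the 95% intervals of the 2 Myl4 probe sets did not overlap, at 0.81 to 2.37 for the first and -0.17 to 0.48 for the second. The probe sets of this gene disagreed there, and which transcript each reads is not given in the sources used here.

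Myh8 (1426650_at) read 9.68, 8.58, 8.02, 8.59 and 7.97 in Mbnl1-null mice, against 7.07, 6.80, 7.08, 6.98 and 7.60 in wild type. All null mice were higher, mouse 1 by the widest margin. The difference was 1.46 (SE 0.29, 2.75-fold, adjusted p = 0.00634). In the Clcn1-null mice Myh8 read 10.46, 9.80 and 9.07, against 9.72, 8.76 and 8.59 in BALB wild type, with overlapping groups and a difference of 0.75 (95% interval -0.32 to 1.82, adjusted p = 0.417). In line 20b the change was -0.13 and in line 41 it was 0.02, with 95% intervals of -0.35 to 0.09 and -0.20 to 0.24. Myosin heavy chain genes are alike in sequence, and cross-hybridisation between them was not tested.

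Tnnt2 has 3 probe sets, and 1440424_at was under the filter in all 34 mice. On 1418726_a_at Mbnl1-null mice read 8.26, 6.58, 7.72, 7.24 and 7.57, against 6.43, 5.84, 6.51, 6.29 and 6.29 in wild type. Mouse 2 of the null group lay just above the highest wild type and the others well above. The difference was 1.20 (SE 0.26, 2.31-fold, adjusted p = 0.0106).

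On 1424967_x_at the Mbnl1-null difference was 0.74 (SE 0.20, adjusted p = 0.0297), with null mouse 2 inside the wild-type range. That call was lost without any of 6 single mice, 3 null and 3 wild type, with an adjusted p of at most 0.0712. In line 20b the Tnnt2 changes were negative and not called, -0.51 (adjusted p = 0.245) and -0.32 (adjusted p = 0.0662), and in line 41 they were -0.13 and -0.27. The second was called lower in line 20b (-0.37) without wild-type mouse 4 (adjusted p = 0.0409), wild-type mouse 5 (0.0458) or line 20b mouse 1 (0.0457). In Clcn1-null mice they were 0.47 and -0.03.

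**Figure D1:**
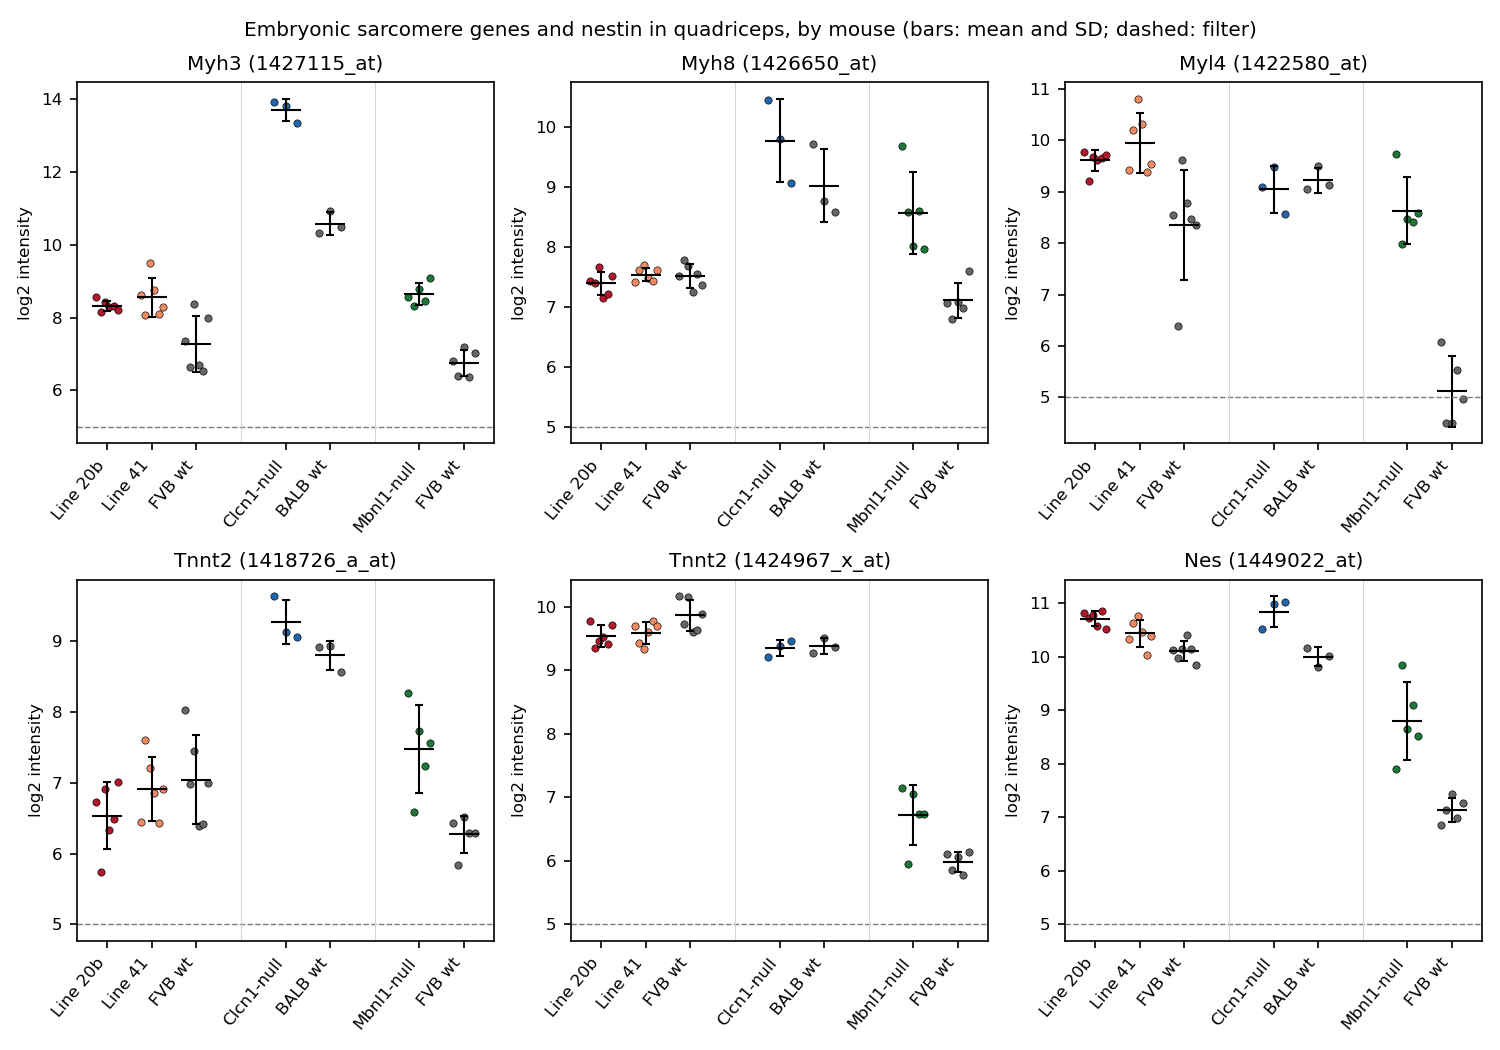
Log2 intensity in each mouse (points) of the Myh3, Myh8, Myl4, Tnnt2 and Nes probe sets that passed the filter in experiment 3. Bars give the group mean and SD, the dashed line is the filter at log2 5, and the experiments are on different scales. Myl4 on 1457126_at and Nes on 1418289_at passed in experiments 1 and 2 only and are not drawn. For Myh3 the Clcn1-null mice sit between 13.36 and 13.94, above BALB wild type at 10.32 to 10.93, and for Myl4 the Mbnl1-null mice sit above FVB wild type.

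Nes encodes nestin, an intermediate filament of myoblasts and immature fibres that adult muscle keeps near nerve and tendon ends. It also occurs in vessel walls. It rose in line 20b and in Mbnl1-null mice on 1449022_at, the only one of its 3 probe sets that passed the filter in all 3 experiments.

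In Mbnl1-null mice this Nes probe set read 7.89, 9.84, 8.64, 9.10 and 8.51, against 6.85, 7.13, 7.43, 6.99 and 7.26 in wild type. The groups did not overlap, and the difference was 1.66 (SE 0.30, 3.17-fold, adjusted p = 0.00342). In experiment 1 its lowest, median and highest level was 10.51, 10.75 and 10.85 in line 20b, 10.04, 10.42 and 10.75 in line 41, and 9.85, 10.14 and 10.41 in wild type. Line 20b lay wholly above wild type and line 41 overlapped with both. The rise in line 20b was 0.60 (SE 0.11, 1.51-fold, adjusted p = 0.000955). The change in line 41 was 0.32 (SE 0.11, adjusted p = 0.0838), and line 20b minus line 41 was 0.27 (95% interval 0.04 to 0.51, adjusted p = 0.18).

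The Clcn1-null mice read 10.51, 10.99 and 11.02, against 10.17, 9.81 and 10.01 in BALB wild type. All null mice were higher, and the difference of 0.84 (SE 0.19) had an adjusted p of 0.0689. The second Nes probe set, 1418289_at, changed by 0.05 in line 20b, by -0.01 in line 41 and by 0.38 in Clcn1-null mice, without a call, and 1 of 10 mice of experiment 3 reached the filter on it. In line 20b the 95% intervals of these probe sets did not overlap, at 0.36 to 0.83 for 1449022_at and -0.18 to 0.27 for 1418289_at, although both read near log2 10 in experiment 1, so the rise there rests on 1 probe set. The third, 1453997_a_at, was under the filter in every mouse.

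Of the 4 myogenic regulatory factors only Myf6 was called, in line 20b and in Mbnl1-null mice, both times by well under 1 on the log2 scale. In the fit without array weights Myod1, Myog and Myf5 were called in no comparison. Their changes were as wide as -0.84 for Myog and -0.82 for Myod1 in Clcn1-null mice.

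Myf6, also called Mrf4, is the factor that prevails in adult fibres. It read 12.14, 12.06, 12.02, 12.03 and 12.06 in Mbnl1-null mice, against 11.82, 11.88, 11.89, 11.85 and 11.82 in wild type. The groups were tight and did not overlap, and the difference was 0.21 (SE 0.05, 1.16-fold, adjusted p = 0.019). That call was lost when every probe set was tested, with no filter (adjusted p = 0.0594) and after a median shift (adjusted p = 0.124).

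In experiment 1 Myf6 had a lowest, median and highest level of 14.35, 14.53 and 14.65 in line 20b, 14.31, 14.40 and 14.74 in line 41, and 13.84, 14.17 and 14.39 in wild type. Both lines overlapped with wild type at its upper end. The rise in line 20b was 0.35 (SE 0.09, 1.27-fold, adjusted p = 0.0121), and the change in line 41 was 0.29 (SE 0.09, adjusted p = 0.0531). In Clcn1-null mice Myf6 read 13.90, 13.54 and 14.27, against 13.80, 14.06 and 13.74 in BALB wild type, a difference of 0.03 (95% interval -0.46 to 0.53).

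Myog, myogenin, drives terminal differentiation and rises after denervation in adult muscle. The Clcn1-null mice read 6.98, 6.51 and 6.05, against 7.31, 7.17 and 7.59 in BALB wild type. Each null mouse was below each wild type, but the difference of -0.84 (95% interval -1.46 to -0.22) had an adjusted p of 0.146. In Mbnl1-null mice Myog read 8.56, 7.96, 8.63, 8.06 and 8.53, against 6.99, 9.12, 8.17, 8.25 and 6.94 in wild type. The wild-type mice spread over more than 2 log2 units around the null mice, and the difference was 0.45 (95% interval -0.37 to 1.28).

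In experiment 1 Myog had a lowest, median and highest level of 9.03, 9.44 and 9.96 in line 20b, 9.13, 9.43 and 11.38 in line 41, and 8.32, 9.26 and 11.76 in wild type. In each of these groups mouse 3 was the highest. The changes were -0.12 in line 20b and 0.32 in line 41, with 95% intervals of -1.08 to 0.85 and -0.64 to 1.29.

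Myod1, a determination factor that is also expressed in adult fast fibres, had a lowest, median and highest level of 11.48, 12.11 and 12.42 in line 20b, 11.34, 11.91 and 12.56 in line 41, and 10.35, 11.87 and 12.32 in wild type. All 3 ranges overlapped (0.47 in line 20b, adjusted p = 0.311, and 0.37 in line 41, adjusted p = 0.5). In Clcn1-null mice it read 8.66, 8.03 and 8.26, against 9.41, 8.31 and 9.69 in BALB wild type, a difference of -0.82 (95% interval -1.75 to 0.10, adjusted p = 0.313). In Mbnl1-null mice the difference was -0.20 (95% interval -0.52 to 0.13). The other Myod1 probe set, 1447675_x_at, was under the filter in every mouse.

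Myf5, the other determination factor, was near the filter in experiments 1 and 3. It read 5.77 to 6.89 in line 20b, 4.56 to 6.87 in line 41 and 6.07 to 6.65 in wild type, and 5.45 to 6.34 in Mbnl1-null mice, against 5.37 to 5.80 in their wild type. All groups overlapped. Its change was 0.11 in line 20b (95% interval -0.52 to 0.74) and -0.39 in line 41 (-1.02 to 0.24). It was 0.11 in Clcn1-null mice (-0.34 to 0.56) and 0.21 in Mbnl1-null mice (-0.16 to 0.59).

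Pax7, the satellite cell factor, could be tested only in experiment 1. There 1452510_at ranged from 6.39 to 6.50 in line 20b, from 6.32 to 6.54 in line 41 and from 6.39 to 6.68 in wild type. The changes were -0.04 in each line, with 95% intervals of -0.18 to 0.10 in line 20b and -0.19 to 0.10 in line 41. These levels lay under the 430A array medians of that experiment, and whether they are signal or background was not tested. In experiments 2 and 3 the same probe set was below 3 in every mouse. The other, 1444596_at, reached the filter in 1 of 34 mice, a BALB wild type at 5.15.

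**Figure D2:**
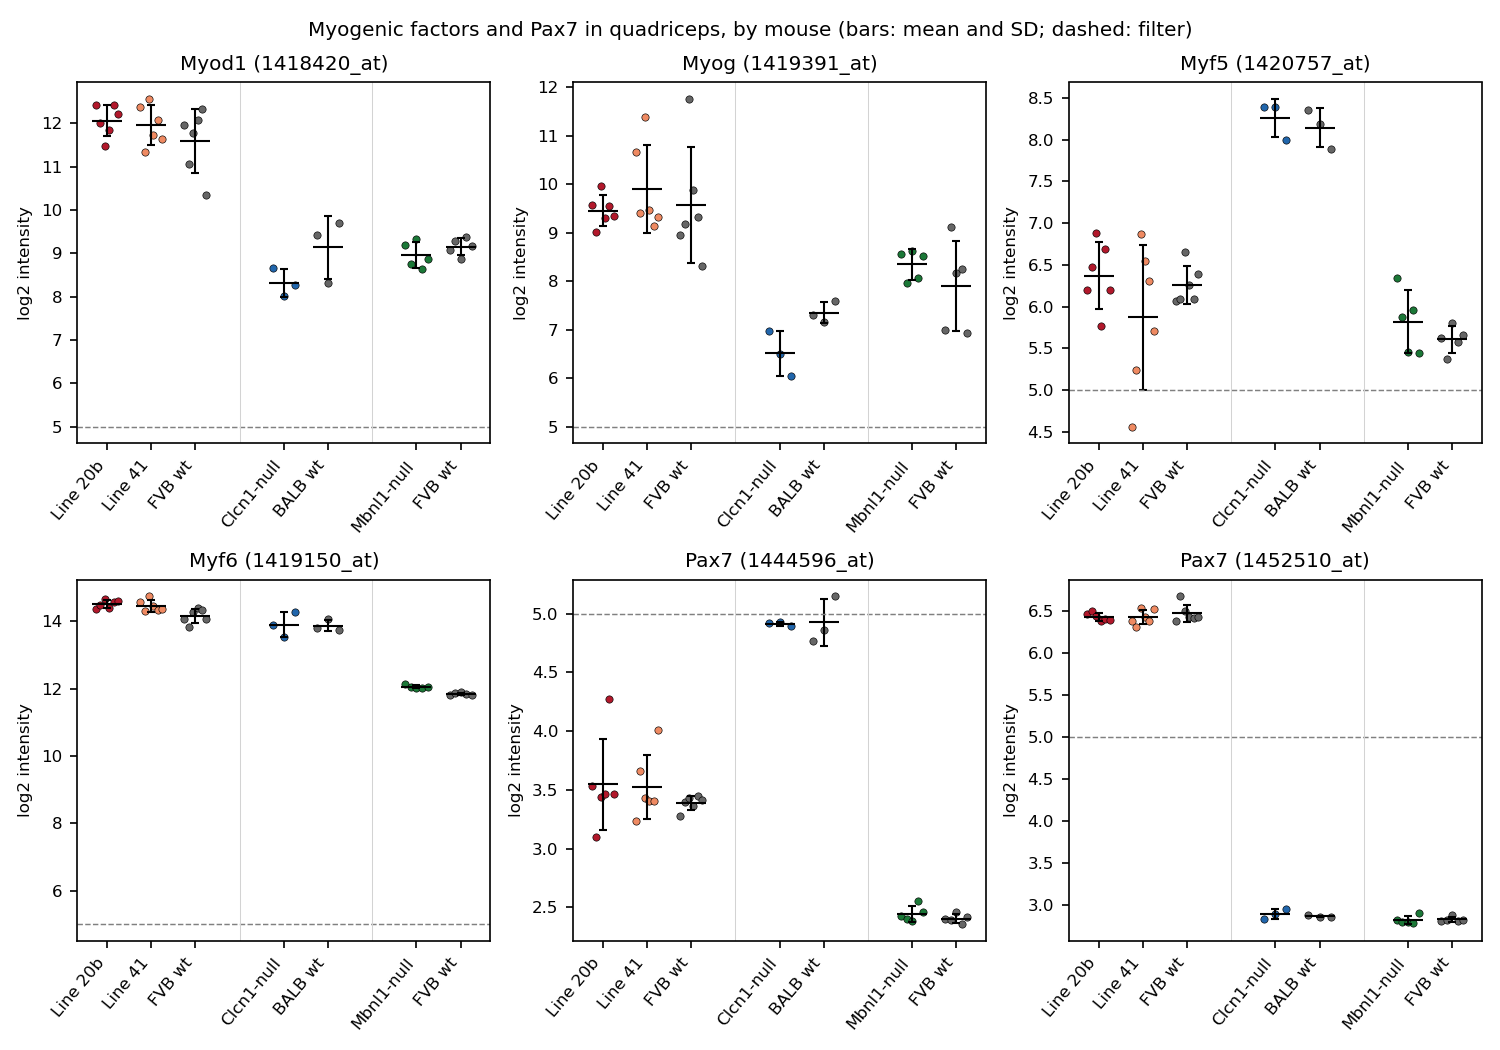
Log2 intensity of the Myod1, Myog, Myf5, Myf6 and Pax7 probe sets in each mouse (points), with the group mean and SD (bars) and the filter at log2 5 (dashed line); the experiments are on different scales. Myf6 lies far above the line in every group and is tightest in experiment 3, Myog is widely spread in FVB wild type, and all mice of experiment 1 are above the line for Pax7 on 1452510_at.

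Over all 17 probe sets, 13 passed the filter in experiment 1, 12 in experiment 2 and 10 in experiment 3. All 10 genes passed in experiment 1, and 9, all but Pax7, in the others. No member was called lower in any comparison with wild type, with all mice in the fit and no array weights. With array weights limma called Myog lower in Clcn1-null mice (-0.81, adjusted p = 0.0104). Since a probe set that passes through 1 high group was bound to differ, the counts that follow describe the members and support nothing further.

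In line 20b 4 member probe sets were called higher and 9 were not called, a share of 30.8%, beside 16.8% of all 27330 probe sets (7.35% higher and 9.49% lower). In line 41 it was 2 and 11, a share of 15.4%, beside 8.47% (3.88% higher and 4.59% lower). In Clcn1-null mice it was 1 and 11, a share of 8.33% that rests on Myh3 alone, beside 4.32% of 25944 probe sets (1.78% higher and 2.54% lower). In Mbnl1-null mice it was 7 and 3, beside 16.2% of 16229 probe sets (7.28% higher and 8.92% lower). The median log2 change of the members that passed was 0.11 in line 20b and 0.15 in line 41, and 0.24 in Clcn1-null mice and 0.97 in Mbnl1-null mice. Over all probe sets tested it was -0.011 and -0.0045 for the lines, 0.033 for Clcn1-null and -0.022 for Mbnl1-null mice.

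Between the 2 lines, 0 of 13 member probe sets were called by limma, beside 5.84% of all probe sets (2.58% higher and 3.26% lower). With an unadjusted p under 0.05 there was 1, the Nes probe set 1449022_at. Mutant and wild-type mice did not overlap for 1 member in line 20b and 0 in line 41, where 9.58% and 3.88% of all probe sets did not. They did not overlap for 5 members in Clcn1-null mice, beside 28.4%, and for 6 in Mbnl1-null mice, beside 14.3%. The lines 20b and 41 overlapped for every member, beside 3.83% of all probe sets that did not.

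**Figure D3:**
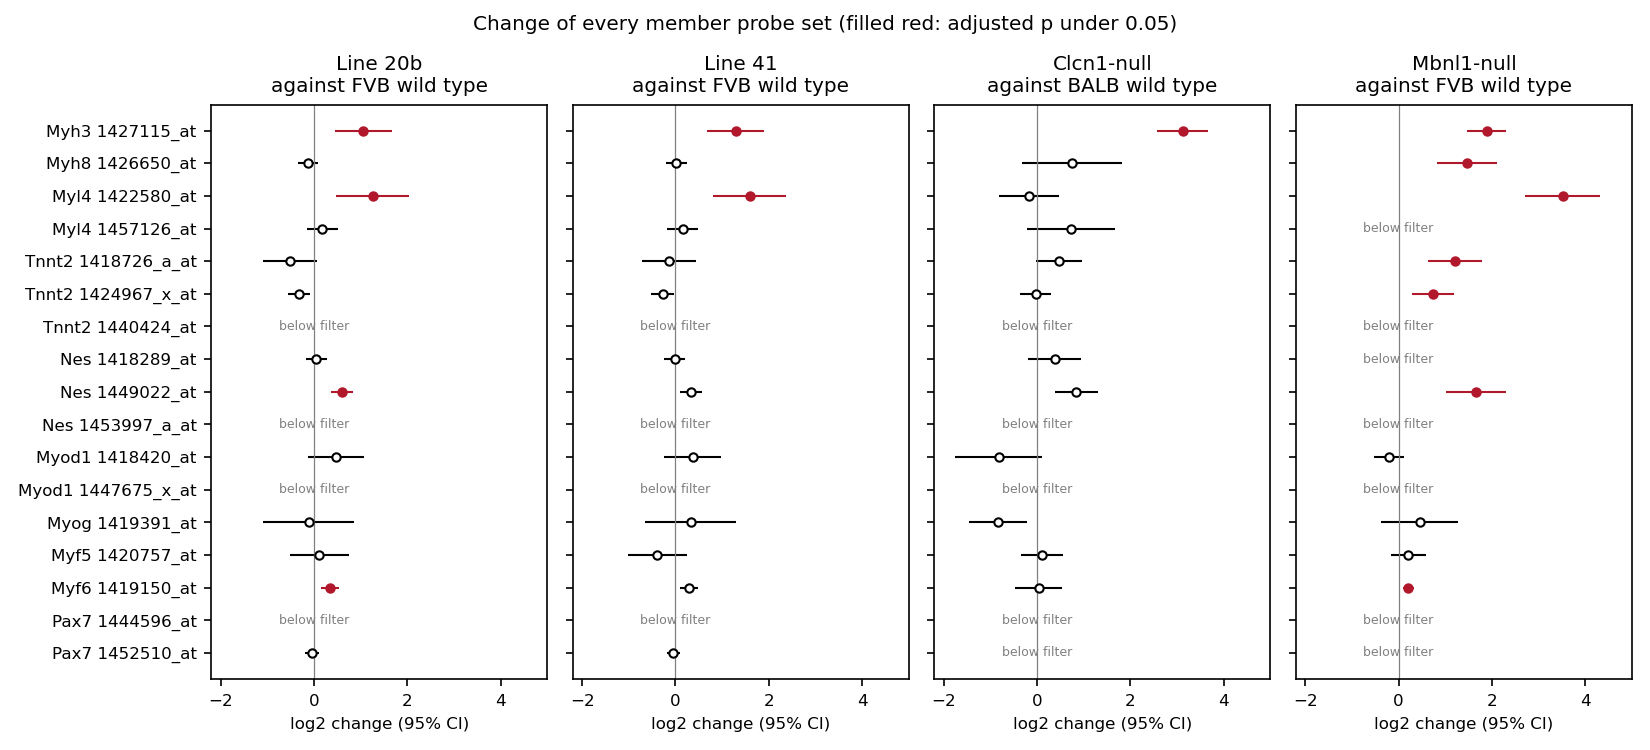
Log2 change of each member probe set, mutant minus wild type of the same experiment, with its 95% interval (bars) from limma; filled points are called. The widest changes are Myl4 (3.52, with 3 of 5 wild-type mice under the filter) and Myh3 (1.89) in Mbnl1-null mice and Myh3 (3.13) in Clcn1-null mice, while Myod1, Myog and Myf5 are called nowhere.

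Some mice moved several members together. In line 41, mouse 3 was the highest of its group for 11 of the 13 member probe sets, whereas it was the highest for 20.3% of all 27330 probe sets. In Mbnl1-null mice, mouse 1 was the highest for 6 of 10, beside 21.2%. Wild-type groups had such mice too. Mouse 3 was the highest for 5 of 10 in FVB wild type of experiment 3, beside 12%. In FVB wild type of experiment 1, mouse 3 was the highest for 5 of 13, beside 16.1%. Without line 41 mouse 3 the rise of Myh3 was 1.10 and was still called.

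Of the FVB wild-type mice of experiment 1, mice 1 and 2 stood apart in other genes. Their mean log2 level over 10 slow sarcomere genes was 11.4 and 9.44, against 13.1 to 13.6 in mice 3 to 6, and over 5 adipocyte markers it was 12.4 and 12.7, against 10.05 to 10.7. Mouse 2 was also the lowest for Myl4 and Myf6. Without both mice, the line 20b changes were 0.93 for Myh3 (adjusted p = 0.0714), 0.81 for Myl4 (adjusted p = 0.0592) and 0.25 for Myf6 (adjusted p = 0.0765), so 3 of the 4 calls were lost, and Nes was still called (0.57, adjusted p = 0.00687). In line 41 both calls were kept, at 1.16 for Myh3 (adjusted p = 0.0481) and 1.14 for Myl4 (adjusted p = 0.0215). No single mouse left out ended the calls of Myh3 or Myl4 in any comparison that had them.

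Other genes linked to immature or regenerating fibres were listed by hand, without a check that they are particular to such fibres. Each gene of a list was read on the probe set with its highest mean. Of those tested, 3 were called higher and 1 lower of 16 in line 20b, 2 and 1 of 16 in line 41, 4 and 1 of 17 in Clcn1-null mice, and 4 and 0 of 14 in Mbnl1-null mice. Ncam1, an adhesion molecule of immature and denervated fibres, rose by 1.14 in line 20b (SE 0.21), by 0.76 in line 41 (SE 0.21) and by 1.60 in Mbnl1-null mice (SE 0.19). Ankrd1, a titin-binding stress protein, rose by 3.52 in Mbnl1-null mice (SE 0.60). In Clcn1-null mice Ankrd2 (2.23), Casq2 (2.02), Csrp3 (1.95) and the growth factor Igf2 (1.65) rose. The list's median change was 0.23 in line 20b and 0.094 in line 41, and 0.64 in Clcn1-null mice and 0.76 in Mbnl1-null mice.

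Actc1, the actin of heart and embryonic skeletal muscle, moved the other way from Myh3. It fell in line 20b (-2.29, SE 0.18), in line 41 (-2.50, SE 0.18) and in Clcn1-null mice (-2.38, SE 0.43, adjusted p = 0.0365). In Mbnl1-null mice its change was -0.55 and was not called. The genes of the developing sarcomere did not all move one way. Of the other cardiac sarcomere genes, Myl7, Ryr2, Tnni3 and Nppb were under the filter in every mouse.

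The partners and regulators of the myogenic factors, such as Mef2c, Six2 and Id1, were read for 33 genes in experiments 1 and 2 and 27 in experiment 3. In line 20b 7 were called higher and 3 lower, in line 41 5 and 0, in Clcn1-null mice 0 and 2, and in Mbnl1-null mice 2 and 2. Over all 62 probe sets of these genes in Clcn1-null mice, 1 was called higher and 3 lower. Cdkn1a, the cell cycle inhibitor p21 that accompanies differentiation, rose by 1.50 in line 20b (SE 0.31), by 1.13 in line 41 (SE 0.31) and by 2.19 in Mbnl1-null mice (SE 0.34). Smyd1, a muscle methyltransferase, rose by 0.57 in line 20b and by 0.83 in line 41. Six2, a homeobox factor, fell in line 20b (-1.02, SE 0.16), in Clcn1-null mice (-0.93, SE 0.14) and in Mbnl1-null mice (-0.71, SE 0.13), and its change in line 41 was -0.43 without a call. The list's medians were 0.028 in line 20b and 0.056 in line 41, and 0.0091 in Clcn1-null mice and 0.12 in Mbnl1-null mice.

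Genes that respond to muscle activity and denervation, several of them through myogenin, were called higher for 4 of 14 in line 20b, 5 of 14 in line 41, 1 of 13 in Clcn1-null mice and 4 of 11 in Mbnl1-null mice, and none was called lower. Sln, sarcolipin, an inhibitor of the calcium pump, rose by 7.34 in line 20b and 6.91 in line 41, and 4.00 in Clcn1-null mice and 4.77 in Mbnl1-null mice. Chrna1, the acetylcholine receptor subunit, rose by 0.70 in line 20b and 0.59 in line 41. The list's medians were 0.14 in line 20b and 0.39 in line 41, and -0.0053 in Clcn1-null mice and 0.40 in Mbnl1-null mice.

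Among satellite cell markers other than Pax7, 0 were called higher in any group. Of 17 tested, Met (-0.45) and Notch3 (-0.52) fell in line 20b, and Met (-0.58), Notch3 (-0.52) and Dag1 (-0.26) in line 41. In which cells of the muscle these genes fell was not tested. By limma 0 of 15 in Clcn1-null and 0 of 11 in Mbnl1-null mice were called, with 2 and 1 at an unadjusted p under 0.05. The list's median change was -0.044 in line 20b and -0.040 in line 41, and 0.0999 in Clcn1-null mice and 0.031 in Mbnl1-null mice. Of the proliferation genes, 0 were called higher of 12 in each line, with Aurka called lower in line 20b (-0.52) and by limma 0 called in line 41 (2 at an unadjusted p under 0.05). Over all 15 probe sets of these genes, 1 was called higher in line 41. Of 9 proliferation genes in Clcn1-null mice Rrm2 rose (2.55) and Aurka fell (-2.06), and of 4 in Mbnl1-null mice Rrm2 rose (0.73). Cdk1, Birc5 and Plk1 were under the filter in every mouse of experiments 2 and 3 on these probe sets.

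Adult fibre genes are the counterpart of the embryonic ones. Of 11 fast sarcomere genes, Myh1 rose (0.33) and Myh4 (-0.17) and Actn3 (-0.13) fell in line 20b, 0 were called in line 41 and 0 in Mbnl1-null mice (1 in each at an unadjusted p under 0.05, limma), and in Clcn1-null mice Myh2 rose (0.52) and Actn3 (-1.92) and Mybpc2 (-0.93) fell. Of 10 slow sarcomere genes, 7 fell and 1 rose in Clcn1-null mice (median -2.36), and 7 fell and 1 rose in Mbnl1-null mice (median -2.76). Myh7, the slow myosin heavy chain, fell in Clcn1-null (-4.11) and in Mbnl1-null mice (-4.61). In each of the lines only Mybpc1 was called, higher, with list medians of 0.58 in line 20b and 0.77 in line 41. Over all 22 probe sets, 3 were called higher and 0 lower in line 20b, and 2 and 1 in line 41. The mean level of the list was 12.05 to 13.38 in line 20b and 12.59 to 13.61 in line 41. In their wild type it ran from 9.44 in mouse 2 to 13.64, with mice 1 and 2 apart from the others. The slow gene changes without those 2 mice are not given here.

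**Figure D4:**
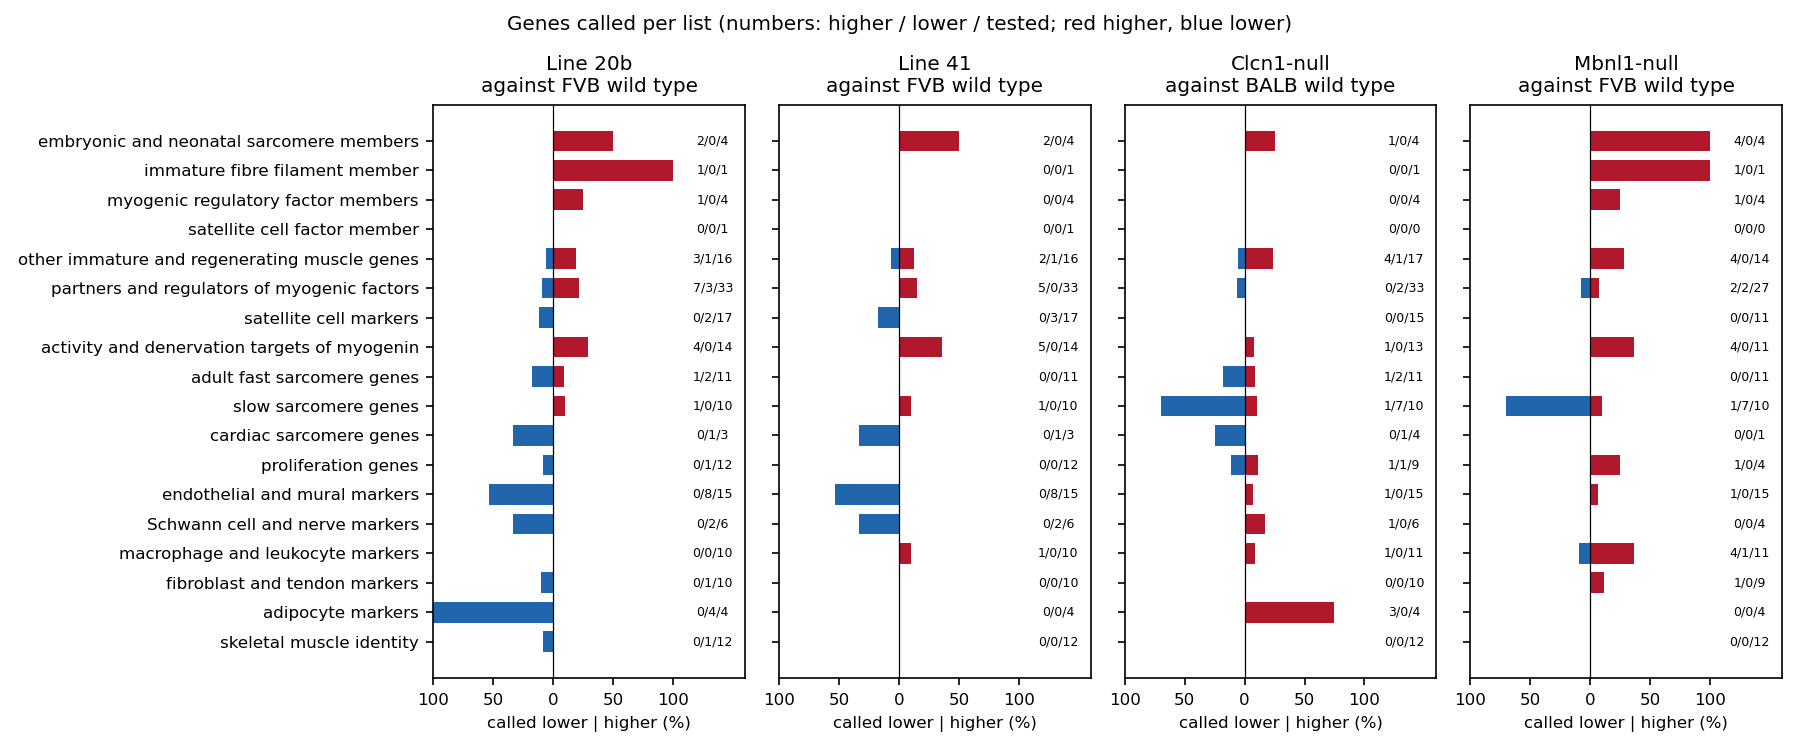
Share of the tested genes of each list that were called lower (blue, left) and higher (red, right) in each comparison with wild type, in percent, with the numbers higher, lower and tested. Slow sarcomere genes were called lower in Clcn1-null and Mbnl1-null mice (7 of 10 each), endothelial and mural markers in the 2 lines (8 of 15 each), and satellite cell markers were called higher nowhere.

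Whole muscle was measured, so fewer cells of a type and less RNA per cell cannot be told apart. Endothelial and mural markers were called lower for 8 of 15 in line 20b and 8 of 15 in line 41. Their mean log2 level ranged from 10.7 to 11.1 in line 20b, from 10.5 to 11.1 in line 41 and from 11.2 to 11.5 in wild type, while Nes rose in line 20b on 1 of its probe sets. In Clcn1-null mice 1 of 15, Acta2, was called higher (0.64), and in Mbnl1-null mice 1 of 15, Cspg4 (0.83). Macrophage and leukocyte markers were called by limma for 0 of 10 in line 20b (3 at an unadjusted p under 0.05), 1 higher in line 41 and 1 higher of 11 in Clcn1-null mice, each time Cd68 (1.46 and 3.25). In Mbnl1-null mice 4 of 11 were called higher and 1 lower, with Cd68 at 1.91, and the mean level of the list was 8.01 to 8.86, against 7.47 to 8.18 in wild type. Itgam, a defining marker of these cells, was under the filter in every mouse on its brightest probe set, and Ptprc in every mouse of experiment 1. The part of infiltrating or regenerating cells in the rise of Myh3, Myl4 and Nes was not tested.

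Adipocyte markers were called lower for 4 of 4 in line 20b and higher for 3 of 4 in Clcn1-null mice, and by limma for 0 of 4 in line 41 and 0 of 4 in Mbnl1-null mice (2 and 0 at an unadjusted p under 0.05). Over all their probe sets, 7 of 7 were called lower in line 20b and 2 of 7 in line 41. The mean level of the list was 9.45 to 9.83 in line 20b and 9.38 to 10.67 in line 41. In their wild type it was 10.05 to 12.65, with mouse 2 highest. Schwann cell and nerve markers fell for 2 of 6 in each line, 1 of 6 rose in Clcn1-null mice, and by limma 0 of 4 were called in Mbnl1-null mice (0 at an unadjusted p under 0.05). Fibroblast and tendon markers were called for 1 of 10, lower, in line 20b, for 1 of 9, higher, in Mbnl1-null mice, and by limma for 0 of 10 in line 41 and 0 of 10 in Clcn1-null mice (1 and 4 at an unadjusted p under 0.05). Over all 22 probe sets of the fibroblast and tendon markers, 1 was called higher in line 41. The part of these cells in the members' changes was not tested.

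The genes most like the called members were sought across the 18 mice of experiment 1, by Pearson's r of log2 levels over groups together. The 18 mice share 3 group means, and no p is given. For Myh3 they were Ldb3 (r = 0.90), Pdcd6ip (0.88) and Sppl3 (0.85). For Myl4 they were Bag3 (0.88), Lmna (0.87) and Uchl1 (0.86), for Nes they were Nol3 (0.89), Polb (0.87) and St8sia5 (0.87), and for Myf6 they were Sap30 (0.92), Gramd3 (0.89) and Trir (0.88). After the group means were removed, r was between 0.58 and 0.85 for these 12 pairs.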

How the data were processed

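Quadriceps RNA of 34 mice was hybridised to 58 Affymetrix arrays. Extraction used Tri-Reagent, and Enzo reagents added the biotin label, per the labels' protocols. The authors deposited 1 linear intensity for each probe set and mouse, made with GCRMA per the submitters' processing notes, with version and settings not given in the sources used here. GCRMA corrects background by base composition and shrinks low values toward a floor, so the size of changes of dim probe sets is uncertain.

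Intensities were put on the log2 scale. Of 45037 probe sets, 34945 had 1 symbol in the supplied annotation, 932 had several and 9160 had none. A probe set was tested in an experiment when log2 5 was reached by at least as many mice as its smallest group holds. Each was fitted in limma 3.58.1 (R 4.3.3; lmFit, eBayes with trend), 430A and 430B apart, with a joint Benjamini-Hochberg adjustment over both. The 3 groups of experiment 1 shared 1 spread. Named are every member, up to 4 called genes of a list with the widest change in a comparison, and the 3 genes with the highest r for likeness. Igf2, Smyd1 in line 20b and genes under the filter were added after their values were seen. The fit was tested on simulated data. The members and lists were chosen with earlier results of these data known. The limma p-values rest on the spread between mice within groups, which eBayes draws toward that of probe sets of like level. Alternatives were other filters, scalings, weights and priors, 1 probe set per gene, a replicate block and left-out mice.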

Additional observations from a re-analysis of the deposited data

Results flagged for a closer look

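In 3 of 59 groups of 4 to 10 mice that were checked, 1 mouse stood far from the others of its group, and chance gives about 1 in 20. Myf6 read 12.1442 in Mbnl1-null mouse 1 and 12.0228 to 12.0558 in the other 4, on the side away from wild type. Myl4 on probe set 1422580_at read 9.21083 in line 20b mouse 2, below 9.62 to 9.78 in the other 5. Myl4 on 1457126_at read 9.65464 in line 20b mouse 6, above 8.85 to 9.04 in the other 5. With the mouse in question left out, Myf6 in Mbnl1-null mice and Myl4 on 1422580_at in line 20b were still called, and Myl4 on 1457126_at was not called with or without it.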

How the results depend on the processing

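No called member change turned its direction under any alternative that was run, and sign changes occurred only among changes that were not called. The number of member probe sets called in line 20b was 4 and dropped to 1 without FVB wild-type mice 1 and 2, and in Clcn1-null mice it was 1 and was 3 with array weights, when Myog (-0.81, adjusted p = 0.0104) and Nes (0.91, adjusted p = 0.00541) were called too. With 1 mouse left out it ranged from 4 to 5 in line 20b, from 2 to 4 in line 41 (4 without FVB wild-type mouse 4) and from 6 to 7 in Mbnl1-null mice, and it was 1 in Clcn1-null mice and 0 between the lines throughout. Of 874 member changes with a mouse left out, 860 kept their side of the threshold, 6 lost a call, all Tnnt2 on 1424967_x_at in Mbnl1-null mice, and 8 gained one. Of the 8, 3 were Tnnt2 on 1424967_x_at called lower in line 20b, 3 were Myf6 and 2 were Nes in line 41, called higher. Without a filter that Tnnt2 call was also lost (adjusted p = 0.0695). Myf6 in line 41 was called with a filter at log2 7 (adjusted p = 0.0434), quantile normalisation (0.0426), a median shift (0.0465) and a replicate block (0.0416), and Nes in line 41 without wild-type mouse 4 (0.0465) or line 41 mouse 5 (0.0255). Over all probe sets the counts called moved by over 1.5 times as follows. With 1 probe set per gene they were 2526 in line 20b, 1216 in line 41, 793 between the lines, 741 in Clcn1-null and 1465 in Mbnl1-null mice, beside 4603, 2315, 1596, 1120 and 2628, since fewer were tested. In line 41 it was 1433 without wild-type mice 1 and 2. In Clcn1-null mice it was 650 with no filter, 7329 with array weights, and between 47 (without BALB wild-type mouse 1) and 2340 (without Clcn1-null mouse 3). In Mbnl1-null mice it was 1727 with no filter and 1502 after a median shift. The cause of the other moves was not tested. Same-numbered mice correlated between -0.19 and 0.40 in their deviations from group means. In experiment 3 the 5 same-numbered pairs lay between 0.02 and 0.40, 4 of them over 0.1. Whether the numbers mark a shared litter or day is not known, and the mice were not paired in the fit. With the replicate block 4 member probe sets were called in line 20b, 3 in line 41, 0 between the lines, 1 in Clcn1-null and 7 in Mbnl1-null mice. Over all probe sets the block gave 243 calls in Clcn1-null and 3310 in Mbnl1-null mice, beside 1120 and 2628 without it. Array number limits precision, most of all with 3 against 3 mice, and probe sets near log2 5 give changes of uncertain size.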
